A study of Mus musculus with 18 samples.

Results

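The proteasome subunit genes were taken by name: every gene called Psma, Psmb, Psmc, Psmd, Psme or Psmg followed by a digit, without pseudogene names ending in -ps. The rule found 48 genes among the 40327 genes of the 129 tables and 46 among the 39147 genes of the Cast tables. Psma5 and Psme2b had a row in the 129 tables alone, and the remaining 46 were in both. The samples were CD23+ B cells from the spleen of female mice, the F1 offspring of strains 129S1 and Cast. All carried the Xist+/- genotype, and their labels say that inactivation is skewed so that the inactive X is the Cast one. In 3 samples the cells were naive and received no treatment, and in 3 others they had been cultured with CpG at 1 µM for 24 h. None of these samples is labelled as cultured for 24 h without CpG, so culture and CpG cannot be told apart. CpG is an oligodeoxynucleotide that B cells sense through Toll-like receptor 9. The age of the animals, and whether a naive and a stimulated sample shared an animal, are not given in the labels. Each library was counted against both strain annotations, so every gene had a 129 count and a Cast count in each sample.

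The proteasome is the barrel-shaped protease that degrades ubiquitin-tagged proteins. Its 20S core stacks rings of alpha subunits, which gate the channel, on rings of beta subunits, of which Psmb5, Psmb6 and Psmb7 carry the active sites of ordinary cells. Cells exposed to interferon gamma, and cells of the immune system, exchange these for the immunoproteasome subunits Psmb8, Psmb9 and Psmb10, which favour peptides that fit MHC class I molecules. The 19S cap, made of ATPases and non-ATPase subunits, recognises and unfolds substrates, while the PA28 and PA200 caps open the core without ATP. Dedicated chaperones build the core and the base of the 19S cap. Of the name matches, Psmc3ip encodes a cofactor of homologous recombination and is no proteasome subunit, and Psme2b is a near copy of the cap gene Psme2, so reads may be divided between the pair and the values of both are uncertain.

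The promoters of the catalytic genes are shown first because the values of these genes after CpG ran from a clear rise to a fall, although their products occupy the same places in the core. Psmg1 and Psmd12 are added as examples of the ETS site, the motif found in the most member windows. Sequences run from 250 bases before to 50 bases after the RefSeq start site in GRCm38.p6, and 40 of the 48 members had an entry. Psmb7 was not among them, so of the constitutive catalytic genes only Psmb5 and Psmb6 are shown. Capitals mark matches, on either strand, to any of 6 motifs: the antioxidant response element core TGACNNNGC, the CCAAT box, the E-box CACGTG, the interferon-stimulated response element core GAAANNGAA, the gamma-activated sequence TTCNNNGAA and the ETS site CCGGAAG.

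Psmb5 promoter, chr14:54617946-54618245, minus strand: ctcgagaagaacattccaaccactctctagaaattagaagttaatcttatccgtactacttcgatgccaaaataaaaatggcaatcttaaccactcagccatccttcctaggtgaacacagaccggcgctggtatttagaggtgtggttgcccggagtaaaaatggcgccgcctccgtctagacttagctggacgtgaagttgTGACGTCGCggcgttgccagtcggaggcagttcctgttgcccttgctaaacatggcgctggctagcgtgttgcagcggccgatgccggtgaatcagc

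Psmb6 promoter, chr11:70525107-70525406, plus strand: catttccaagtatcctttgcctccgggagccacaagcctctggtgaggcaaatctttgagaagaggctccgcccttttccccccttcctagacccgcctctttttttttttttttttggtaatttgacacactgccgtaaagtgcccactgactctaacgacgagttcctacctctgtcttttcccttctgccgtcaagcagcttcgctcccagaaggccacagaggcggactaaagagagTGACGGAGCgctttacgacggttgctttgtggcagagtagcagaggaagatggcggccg

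Psmb8 promoter, chr17:34197945-34198244, plus strand: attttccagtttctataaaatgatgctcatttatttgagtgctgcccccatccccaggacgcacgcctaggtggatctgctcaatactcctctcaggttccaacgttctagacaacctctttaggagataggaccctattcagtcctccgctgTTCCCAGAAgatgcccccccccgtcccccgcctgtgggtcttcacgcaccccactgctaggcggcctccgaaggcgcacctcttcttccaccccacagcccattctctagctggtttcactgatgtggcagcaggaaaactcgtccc

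Psmb9 promoter, chr17:34187281-34187580, minus strand: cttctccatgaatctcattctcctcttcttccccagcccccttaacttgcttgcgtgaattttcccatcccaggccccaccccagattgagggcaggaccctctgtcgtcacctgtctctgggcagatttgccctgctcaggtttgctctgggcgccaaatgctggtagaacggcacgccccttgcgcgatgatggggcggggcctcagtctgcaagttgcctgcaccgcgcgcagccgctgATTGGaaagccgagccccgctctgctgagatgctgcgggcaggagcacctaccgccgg

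Psmb10 promoter, chr8:105938343-105938642, minus strand: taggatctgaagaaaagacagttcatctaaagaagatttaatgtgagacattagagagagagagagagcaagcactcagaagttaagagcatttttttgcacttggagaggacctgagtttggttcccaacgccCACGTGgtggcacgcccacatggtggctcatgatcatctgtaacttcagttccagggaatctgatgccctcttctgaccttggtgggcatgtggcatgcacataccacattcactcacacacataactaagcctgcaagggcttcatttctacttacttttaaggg

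Psmg1 promoter, chr16:95990911-95991210, minus strand: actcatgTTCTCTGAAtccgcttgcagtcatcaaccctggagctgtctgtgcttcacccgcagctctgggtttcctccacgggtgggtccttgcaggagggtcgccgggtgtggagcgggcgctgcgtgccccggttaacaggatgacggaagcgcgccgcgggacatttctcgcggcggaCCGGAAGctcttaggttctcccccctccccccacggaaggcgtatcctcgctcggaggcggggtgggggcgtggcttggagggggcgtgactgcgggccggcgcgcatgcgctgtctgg

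Psmd12 promoter, chr11:107479278-107479577, plus strand: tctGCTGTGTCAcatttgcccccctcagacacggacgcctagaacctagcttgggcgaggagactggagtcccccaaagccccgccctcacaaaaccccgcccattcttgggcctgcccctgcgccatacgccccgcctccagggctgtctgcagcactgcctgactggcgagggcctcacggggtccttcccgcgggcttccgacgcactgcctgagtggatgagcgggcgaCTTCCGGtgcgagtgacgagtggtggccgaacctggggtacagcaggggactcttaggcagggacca

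In these windows Psmb5 and Psmb6 each held 1 antioxidant response element core, the motif family bound by the stress-response factors Nfe2l1 and Nfe2l2. It began 47 bases before the start site in Psmb5 and 9 bases before it in Psmb6. Psmb8 held a gamma-activated sequence 97 bases before its start, Psmb9 a CCAAT box whose match began 8 bases before its start, and Psmb10 an E-box 116 bases before its start. Psmg1 held an ETS site 69 bases before its start as well as a gamma-activated sequence at 243 bases, and Psmd12 an ETS site 17 bases before its start with an antioxidant response element core at 247 bases. Over all 43 windows of the members, the ETS site was present in 16 (37.2%), against 8.86% of the 32851 windows in the table. The antioxidant response element core was in 14.0% of member windows and 12.4% of all windows, and the interferon-stimulated response element core in 16.3% and 8.56%. The CCAAT box (34.9% and 37.4%), the E-box (9.30% and 7.15%) and the gamma-activated sequence (6.98% and 8.30%) were near their shares in all windows. These are matches of letters and were not tested as binding sites.

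The depth was 1987266 to 2928236 gene reads per sample for 129 and 2465073 to 3321753 for Cast. Levels below are normalized CPM, counts of 1 strain table on the CPM scale of its gene reads after TMM scaling, and fold changes are stimulated over naive. A CPM here depends on gene length and on how many strain variants a read can show, so levels are compared between samples and not between genes, and the Cast shares given later carry the same limit. All 8 B cell markers with a row in the 129 tables were detected in naive and stimulated cells. Summed over that list, on the CPM scale without TMM scaling as for all marker lists, they ran from 9064 to 11440 CPM in naive and from 3168 to 3828 in stimulated samples of the 129 tables. Markers of red pulp macrophages (15 genes with a row) summed to 3416 to 7027 CPM in naive samples and 74.7 to 88.5 in stimulated samples, with 10 of the 15 at 3 reads or fewer in every stimulated sample. The Cast tables gave 2987 to 6144 and 118 to 138. T cell markers summed to 50.7 to 66.5 CPM in naive and 2.71 to 8.88 in stimulated samples, and erythroid markers to 10.8 to 110 and 0 to 1.42, over both tables. Plasma cell markers summed to 327 to 668 in naive and 337 to 601 in stimulated samples, and neutrophil markers to 4.82 to 28.8 and 0 to 1.51. All tested B cell markers (8 on 129 and 7 on Cast) and all tested macrophage markers (13 on each) were called lower after CpG. Of the T cell markers 2 of 3 tested on 129 and 1 of 2 on Cast were called lower, led by Cd4, while the Cd3 genes had at most 14 reads in any sample. Both tested erythroid markers on 129 and the 1 tested on Cast were called lower, and no neutrophil marker had enough reads to test. Over all genes tested, the shares called lower were 27% on 129 and 31.5% on Cast. The part of these other cell types in the results below was not tested. In bulk samples fewer cells of a type and less RNA per cell cannot be told apart.

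After 24 h of CpG most proteasome genes rose on both alleles. On 129, 45 members passed the filter on low counts, and edgeR's quasi-likelihood test with Benjamini-Hochberg adjustment over all genes called 38 of them higher and 1 lower. Of all 10581 genes tested there, 28.2% were called higher and 27% lower. On Cast, 42 members passed, 37 were called higher and 1 lower, against 30.7% and 31.5% of 10365 genes. Tested members had a median log2 fold change of 1.53 on 129 and 1.51 on Cast, beside −0.01 and −0.04 for all genes tested. In 38 members of the 129 tables and 37 of the Cast tables every stimulated sample lay above every naive sample, which 32.6% and 33.7% of all tested genes did. Of the 41 members tested on both alleles, 34 were called higher on both, 2 on 129 alone, 2 on Cast alone, and 2 on neither. The last, Psmb10, was called lower on Cast alone. With the replicate number as a block, 39 members were higher on 129 and 37 on Cast, beside 33.1% and 32.9% of all genes. All these counts include 2 name matches without a proteasome role. They are Psmc3ip, called higher on both alleles, and Psme2b, the member called lower on 129.

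The 46 members with a proteasome role took 0.246%, 0.247% and 0.236% of all gene reads in the 3 naive samples of the 129 tables. In the stimulated samples they took 0.591%, 0.588% and 0.626%. The mean went from 0.243% ± 0.00594 to 0.601% ± 0.0210 (SD, n = 3 each). In the Cast tables, with 45 such members, it went from 0.264% ± 0.0242 to 0.660% ± 0.0157. All stimulated samples lay above all naive samples in both.

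**Figure D1:**
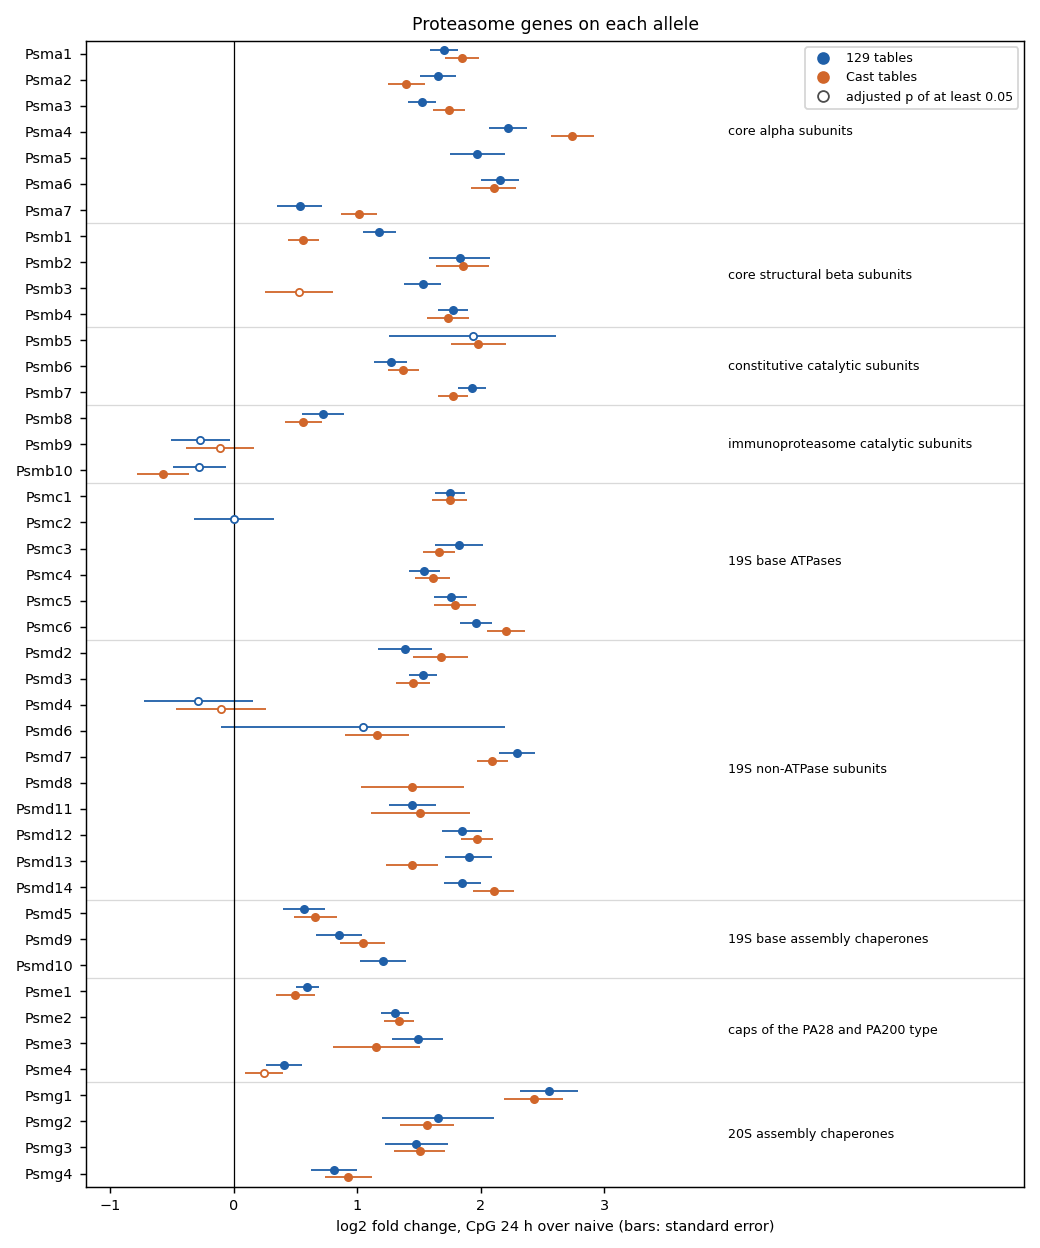
Log2 fold change (x axis, CpG 24 h over naive) of each tested member with a role (y axis, grouped by role), in the 129 tables (blue) and the Cast tables (orange). Bars are standard errors, and open circles have an adjusted p of at least 0.05 in edgeR. Most points lie near the medians of 1.53 and 1.51, while Psmb9, Psmb10 and Psmd4 lie below 0 on both alleles.

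All 7 tested alpha subunits of the core rose in the 129 tables, and all 6 in the Cast tables, with medians of 1.70 and 1.79 on the log2 scale. Psma4 moved furthest. Its naive samples held 24.1, 24.1 and 18.6 normalized CPM in the 129 tables and its stimulated samples 102, 109 and 101. In the Cast tables the same samples gave 26.8, 36.1 and 41.7, then 223, 257 and 218. The groups were far apart on both alleles, at log2 fold changes of 2.22 ± 0.16 (SE) and 2.74 ± 0.18, with adjusted p-values of 3.14e-05 and 2.29e-06 in edgeR. At the other end, Psma7 went from 32.7, 27.8 and 28.6 to 42.4, 37.6 and 48.9 normalized CPM in the 129 tables. Its Cast values were 48.6, 43.6 and 50.2 in naive and 110, 88.5 and 88.5 in stimulated samples. Psma7 thus rose by 0.53 ± 0.18 and 1.01 ± 0.15 on the log2 scale, the first with an adjusted p of 0.0375 in edgeR. That 129 call was lost when any of 5 of the 6 samples was left out, with DESeq2, and without the filter on low counts, at adjusted p-values of 0.0520 to 0.123. Psma5, tested on the 129 allele alone, rose by 1.97 ± 0.22. Psma1, Psma2, Psma3 and Psma6 rose by 1.52 to 2.16 on 129 and 1.40 to 2.10 on Cast. Psma8, the alpha subunit of germ cells, had at most 8 reads in any sample and was not tested.

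Among the structural beta subunits, which have no active site, all 4 rose on 129 and 3 of 4 on Cast. Psmb2 went from 18.1, 10.8 and 12.5 to 46.4, 57.1 and 44.0 normalized CPM on 129 and from 10.2, 9.38 and 14.2 to 41.3, 42.2 and 37.9 on Cast. Its log2 fold changes of 1.83 ± 0.25 and 1.85 ± 0.21 were alike on the alleles. Psmb4 rose by 1.77 ± 0.12 and 1.73 ± 0.17.

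Psmb1 and Psmb3 had unlike values on the alleles. Psmb1 held 43.0, 41.5 and 45.1 normalized CPM in naive and 106, 98.5 and 88.3 in stimulated samples on 129. On Cast it held 141, 152 and 161, then 221, 247 and 202. Both alleles rose without overlap, by 1.17 ± 0.13 on 129 and 0.56 ± 0.12 on Cast. Psmb3 went from 29.7, 34.1 and 28.1 to 81.3, 91.4 and 92.5 on 129, a log2 fold change of 1.53 ± 0.15 with an adjusted p of 0.000123 in edgeR. On Cast it read 13.2, 17.3 and 9.88 in naive and 21.1, 15.4 and 21.9 in stimulated samples. The Cast groups overlapped, with a log2 fold change of 0.52 ± 0.28 and an adjusted p of 0.127 in edgeR. The direct test of these allele differences is given with the Cast shares.

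The 3 active-site subunits of the constitutive core rose on both alleles. The exception was Psmb5 on 129, which missed the threshold in the edgeR fit of all samples without the replicate block. Psmb6, which cuts after acidic residues, went from 75.7, 66.5 and 70.7 to 185, 147 and 180 normalized CPM on 129. Its Cast values went from 42.6, 44.0 and 45.5 to 116, 106 and 119. This was a rise of 1.27 ± 0.14 and 1.37 ± 0.13 on the log2 scale. Psmb7, which cuts after basic residues, went from 106, 103 and 93.8 to 375, 361 and 417 on 129 and from 192, 169 and 180 to 594, 665 and 588 on Cast. Its rises of 1.93 ± 0.11 and 1.77 ± 0.12 had adjusted p-values of 1.86e-05 and 3.31e-06 in edgeR. The chymotrypsin-like subunit Psmb5 held 20.2, 7.89 and 18.1 in naive and 77.7, 16.3 and 82.0 in stimulated samples on 129. Replicate 2 was the lowest of its group in both, and the groups overlapped. The log2 fold change on 129 was 1.93 ± 0.67 with an adjusted p of 0.0502 in edgeR. Without stimulated replicate 2 it was 2.37 with an adjusted p of 0.00318, and with the replicate number as a block it was 1.83 ± 0.24 with an adjusted p of 5.57e-06, by the same test. DESeq2 called it as well, with an adjusted p of 0.00362. On Cast Psmb5 went from 19.2, 17.3 and 11.2 to 53.6, 66.3 and 69.5, a rise of 1.98 ± 0.22.

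Of the 3 immunoproteasome counterparts, 1 (33.3%) was called higher on each allele, near the 28.2% (129) and 30.7% (Cast) of all genes tested. The median log2 fold changes of the 3 were −0.27 on 129 and −0.11 on Cast. Psmb8, the partner of Psmb5, held 253, 307 and 222 normalized CPM in naive and 376, 514 and 399 in stimulated samples on 129. On Cast it held 584, 702 and 564, then 844, 1054 and 830. The groups did not overlap, and Psmb8 rose by 0.72 ± 0.17 and 0.56 ± 0.15 on the log2 scale, with adjusted p-values of 0.00878 and 0.00904 in edgeR. Psmb9, the partner of Psmb6, read 208, 251 and 196 in naive and 138, 251 and 153 in stimulated samples on 129. On Cast it read 76.9, 99.6 and 60.6, then 60.5, 106 and 52.7. Its groups overlapped on both alleles, replicate 2 was the highest in each, and the log2 fold changes were −0.27 ± 0.24 and −0.11 ± 0.28 with adjusted p-values of 0.366 and 0.738 in edgeR. With the replicate number as a block the 129 value was −0.31 ± 0.13 and was called lower, with an adjusted p of 0.0477 in edgeR. Without stimulated replicate 2 it was −0.60, also called lower, with an adjusted p of 0.0178, and without stimulated replicate 1 it was −0.10. It was 1 of 2 members called lower in that fit, beside 31.9% of all genes. Psmb10, the partner of Psmb7, read 19.4, 25.8 and 22.1 in naive and 19.4, 17.7 and 18.1 in stimulated samples on 129, at a log2 fold change of −0.28 ± 0.21 and an adjusted p of 0.299 in edgeR. On Cast it read 23.7, 25.6 and 22.3, then 15.1, 18.5 and 14.5. These Cast groups were apart, and Psmb10 fell by 0.58 ± 0.21 on the log2 scale with an adjusted p of 0.0367 in edgeR. That call was lost when any sample but stimulated replicate 2 was left out, with DESeq2, and without the filter on low counts, at adjusted p-values of 0.0618 to 0.136. Psmb11, the beta subunit of the thymus, had 1 read in all samples of both tables.

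**Figure D2:**
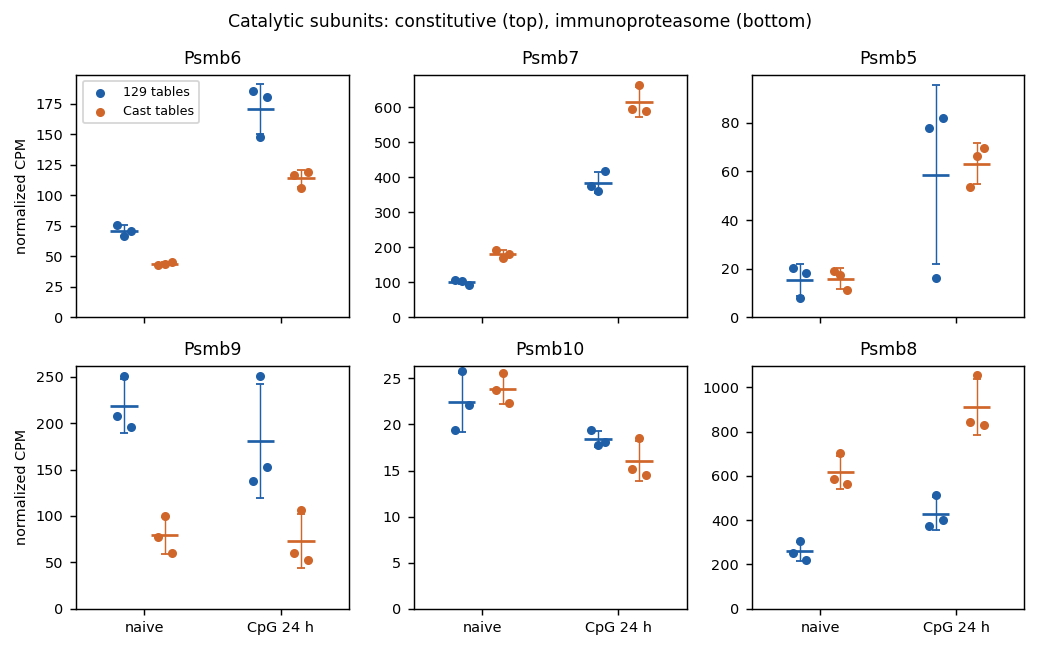
Normalized CPM (y axes, from 0) of the constitutive catalytic subunits (top row) and their immunoproteasome partners (bottom row) in naive and stimulated cells, for the 129 tables (blue) and the Cast tables (orange). Points are samples, and lines with bars are means ± SD of 3 samples. The top row rises except for 1 low Psmb5 sample on 129, while Psmb9 and Psmb10 stay near or below their naive levels.

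The balance within each pair was taken as the ratio of reads in 1 sample and table, which does not depend on scaling, and is a description of values already tested singly. On Cast the Psmb8 to Psmb5 ratio was 30.4, 40.5 and 50.5 in naive and 15.8, 15.9 and 11.9 in stimulated samples. On 129 it went from 12.5 to 4.84 in replicate 1 and from 12.3 to 4.86 in replicate 3, but from 38.9 to 31.5 in replicate 2, whose Psmb5 reads were low. The 129 groups overlapped for that pair. The mean Psmb9 to Psmb6 ratio went from 3.10 ± 0.591 to 1.10 ± 0.527 on 129 and from 1.80 ± 0.466 to 0.655 ± 0.304 on Cast (SD, n = 3 each). For Psmb10 to Psmb7 it went from 0.223 ± 0.0353 to 0.0481 ± 0.00422 on 129 and from 0.133 ± 0.0158 to 0.0260 ± 0.00165 on Cast. Both of these ratios were lower in every stimulated than in every naive sample of the same table.

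**Figure D3:**
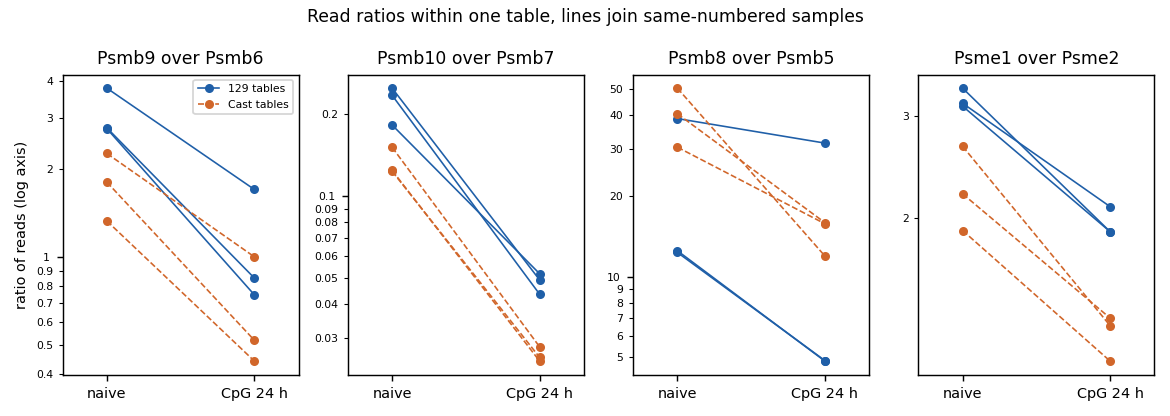
Ratio of reads between the genes of a pair (y axes, log scale) in naive and stimulated cells, with lines joining samples of the same replicate number in the 129 tables (blue) and the Cast tables (orange, dashed). Each line descends, and the Psmb8 to Psmb5 line of replicate 2 on 129 descends least, from 38.9 to 31.5.

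In the base of the 19S cap, 5 of 6 tested ATPases rose on 129 and 5 of 5 on Cast, with medians of 1.75 on both. Psmc6 went from 54.2, 43.2 and 50.6 to 195, 182 and 200 normalized CPM on 129 and from 39.9, 29.6 and 34.4 to 174, 155 and 149 on Cast. Psmc4 moved least among those tested on both alleles, from 92.1, 108 and 102 to 262, 312 and 308 and from 65.6, 89.1 and 67.4 to 226, 230 and 222. The ATPases lay close together, and the 5 that rose had log2 fold changes between 1.54 and 1.96 on 129 and between 1.61 and 2.20 on Cast. Psmc2 lay apart from them on 129, with 17 to 31 reads per sample and a log2 fold change of 0.00 ± 0.33 (adjusted p of 0.998 in edgeR), and had 2 to 11 reads on Cast, where it was not tested.

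Of the non-ATPase subunits of the 19S cap, 7 of 9 tested rose on 129 and 9 of 10 on Cast, with medians of 1.53 and 1.48. Psmd7, a lid subunit that pairs with the deubiquitinase Psmd14, went from 24.9, 23.3 and 27.6 to 120, 114 and 138 normalized CPM on 129. On Cast it went from 35.8, 39.0 and 34.8 to 158, 155 and 155. Its rises of 2.29 ± 0.15 and 2.09 ± 0.12 had the highest mean of this role among genes tested on both alleles. Psmd14 itself rose by 1.85 ± 0.15 and 2.10 ± 0.17. Psmd4, the ubiquitin receptor also known as Rpn10, had only 7 to 18 reads per sample on 129 and 11 to 21 on Cast. Its log2 fold changes of −0.29 ± 0.44 and −0.10 ± 0.36 did not pass in edgeR. The part of its low counts in these values was not tested. Psmd11, with 5 to 23 reads per sample on Cast, was called higher there (1.51 ± 0.40). Psmd6, a lid subunit, held 12.1, 7.89 and 22.1 in naive and 8.63, 3.54 and 74.0 in stimulated samples on 129, so replicate 3 stood far above the rest. Its 129 log2 fold change was 1.05 ± 1.15, and −1.19 without stimulated replicate 3. On Cast Psmd6 rose by 1.16 ± 0.26, from 73.8, 62.4 and 42.5 to 170, 140 and 90.3. Psmd8, another lid subunit, had 36, 4 and 6 naive and 143, 8 and 4 stimulated reads on 129 and was not tested there. On Cast it went from 28.6, 50.9 and 64.8 to 56.4, 162 and 173, a called rise of 1.44 ± 0.42 whose groups overlapped at 56.4 and 64.8. That call has an adjusted p of 0.0137 in edgeR, and of 0.0766 and 0.0587 without stimulated replicate 2 or 3, and 0.118 without the filter on low counts. Psmd1, a scaffold subunit of the base, had no row under that name in the 129 or the Cast tables and could not be analysed.

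The caps that open the core without ATP had median log2 fold changes of 0.95 on 129, where 4 of 4 rose, and 0.82 on Cast, where 3 of 4 rose. Psme1 and Psme2, the alternating subunits of the interferon-inducible PA28 ring, moved by unequal amounts. Psme1 went from 192, 191 and 184 to 282, 285 and 289 normalized CPM on 129 and from 191, 176 and 129 to 237, 246 and 220 on Cast. Psme2 went from 61.5, 56.9 and 58.2 to 149, 150 and 138 on 129 and from 72.0, 80.1 and 67.9 to 181, 183 and 194 on Cast. Psme1 rose by 0.59 ± 0.09 and 0.50 ± 0.16, and Psme2 by 1.31 ± 0.11 and 1.34 ± 0.12. The Psme1 to Psme2 read ratio went from 3.21 ± 0.125 to 1.96 ± 0.114 on 129 and from 2.26 ± 0.380 to 1.26 ± 0.112 on Cast, without overlap. Psme3, whose product forms the nuclear PA28 gamma ring, went from 43.9, 42.0 and 34.6 to 105, 144 and 89.7 on 129. Its Cast reads numbered only 8 to 34 per sample, and it rose by 1.49 ± 0.21 on 129 and 1.15 ± 0.35 on Cast. The Cast call, at an adjusted p of 0.0175 in edgeR, was lost without naive replicate 1 (0.0586). Psme4, the PA200 cap, held 59.8, 51.5 and 67.7 in naive and 77.0, 79.8 and 79.9 in stimulated samples on 129. On Cast it held 63.7, 62.4 and 48.1, then 70.9, 63.8 and 71.6. Its log2 fold changes were 0.40 ± 0.14 and 0.24 ± 0.15, with adjusted p-values of 0.0454 and 0.195 in edgeR. The 129 call was lost with DESeq2 (adjusted p 0.107), under each other scaling and filter of edgeR (0.0524 to 0.0676), and when any sample but naive replicate 3 was left out. Psme2b, the near copy of Psme2, went the other way, from 64.5, 62.3 and 59.2 to 24.1, 26.9 and 23.7 on 129. It fell by 1.31 ± 0.15 on the log2 scale, the only member called lower on 129. Psme2b overlaps Gm12185 and 9930111J21Rik1 on the same strand of the GENCODE annotation, so its reads may not be separated from theirs. Overlap of exons was not checked.

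The chaperones that assemble the 20S core rose on both alleles, all 4 of 4. Psmg1, which with Psmg2 arranges the alpha ring, held 12.5, 7.89 and 12.0 in naive and 55.4, 61.7 and 73.0 in stimulated samples on 129. On Cast it held 11.3, 6.13 and 8.16, then 47.6, 47.2 and 43.2. Rises of 2.55 ± 0.24 and 2.43 ± 0.24 put it above each other assembly gene on either allele. Psmg2 went from 45.2, 25.8 and 20.1 to 152, 72.3 and 61.8 on 129, with replicate 1 the highest in both groups. On Cast it went from 43.3, 74.0 and 53.3 to 133, 179 and 192, with replicate 1 the lowest. Its rises were 1.65 ± 0.45 and 1.56 ± 0.22, the first with an adjusted p of 0.0207 in edgeR that became 0.0794 and 0.0618 without naive replicate 2 or 3, and 0.0614 without the filter on low counts. Psmg3 went from 15.5, 22.9 and 26.1 to 55.7, 49.3 and 74.0 on 129 and from 16.6, 18.0 and 21.1 to 60.8, 41.0 and 55.9 on Cast. Psmg4, its partner, went from 27.1, 23.7 and 19.6 to 41.0, 43.6 and 39.1 on 129 and from 16.9, 21.3 and 15.9 to 36.5, 34.2 and 32.5 on Cast. That made 1.48 ± 0.25 and 1.50 ± 0.21 for Psmg3, and 0.81 ± 0.19 and 0.93 ± 0.19 for Psmg4.

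All tested chaperones of the 19S base rose, 3 of 3 on 129 and 2 of 2 on Cast, with a median of 0.85 on each. Psmd5 rose by 0.57 ± 0.17 on 129 and 0.66 ± 0.18 on Cast, and Psmd9 by 0.85 ± 0.19 and 1.04 ± 0.18. The third, Psmd10 (gankyrin), is X-linked. It had 95, 77 and 101 naive and 265, 277 and 262 stimulated reads on 129, the active X, which is 40.9, 32.0 and 50.6 and then 95.3, 98.2 and 91.5 normalized CPM. This was a rise of 1.21 ± 0.18 on the log2 scale with an adjusted p of 0.00106 in edgeR. From the inactive Cast X it had 2, 2 and 9 naive and 9, 8 and 2 stimulated reads, too few to test. The Cast share was 2.06%, 2.53% and 8.18% in naive and 3.28%, 2.81% and 0.76% in stimulated samples. The 95% Wilson intervals, which cover counting error only, reached from 0.567% to 14.8% in naive and from 0.208% to 6.12% in stimulated samples. Means were 4.26% ± 3.41 and 2.28% ± 1.34 (SD, n = 3 each), a difference of −1.98 points with p = 0.60 in an exact two-sided permutation test, which cannot go below 0.10 with 3 against 3. Without naive replicate 3 the difference was −0.01 points. The 20 flanking X-linked genes had median Cast shares of 1.63% to 3.33%, and 4 of the 6 shares of Psmd10 fell within that range, with naive replicate 3 above it and stimulated replicate 3 below. A change of the inactive copy was not detectable at this depth.

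Psmc3ip, which has no proteasome role, had the highest log2 fold change of all 48 name matches, at 3.65 ± 0.20 on 129 and 3.28 ± 0.26 on Cast. It went from 7.31, 11.2 and 8.52 to 116, 104 and 123 normalized CPM on 129.

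The allele counts of 44 members could be tested together over 10364 matched genes, in a fit with a term for each sample. No member's balance of Cast and 129 reads was called as shifted after CpG in edgeR's quasi-likelihood test, 3 had an unadjusted p under 0.05, and 0.917% of all genes were called. With the replicate number as a block, 2 members were called, beside 7.52% of all genes. Psmb1 had a Cast share of 78.9%, 80.8% and 80.7% in naive and 70.4%, 74.2% and 73.0% in stimulated samples. Its log2 ratio changed by −0.61, with an adjusted p of 0.0912 without and 0.00193 with the block in edgeR. Psmb3 had a Cast share of 33.7%, 36.9% and 29.1% in naive and 22.9%, 16.2% and 21.8% in stimulated samples. Its log2 ratio changed by −0.98 (adjusted p of 0.170 in edgeR), or −1.01 with the block (0.0102). In both genes every stimulated share lay below every naive share, and their flanking genes' medians lay between 46.0% and 61.6%. Adjusted p-values for the change in Psma4 and Psma7, which rose more on Cast, were 0.483 and 0.396 in edgeR.

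Of the 42 autosomal members with at least 20 reads in every sample, 27 had a mean Cast share between 40% and 60%, and the median was 50.3%. Cast and 129 were called different by edgeR in 17 of 44 members in naive cells and 17 in stimulated cells, beside 26.6% and 26.7% of all genes. In 15 members both were called, 8 with more Cast and 7 with more 129 reads. Psmb8 had Cast shares of 70.2% to 74.8% and Psmb9 of 26.6% to 33.4%, although both lie in the MHC region of chromosome 17. Psmd11 had 9.26% to 13.3% and Psme3 7.27% to 12.7%. Unequal expression and unequal mapping of reads to the strain genomes cannot be told apart in these counts.

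Some shares differed between replicate numbers instead of treatments. A term for the replicate number, added after seeing the data, was called by edgeR in 3 of 44 members, below the 14.1% of all genes. Psmd8 had a Cast share of 67.9%, 97.2% and 96.2% in naive and 55.6%, 98.5% and 99.3% in stimulated samples, with an adjusted p of 2.85e-18 in edgeR. Its flanking medians were also lowest in replicate 1, at 50.7% in both groups against 53.6% to 59.9% in replicates 2 and 3, a smaller step. Psmg2 had 52.3%, 76.8% and 75.6%, then 49.9%, 74.0% and 78.6%, with flanking medians of 53.8% to 59.3%. Replicate 1 therefore stood apart from replicates 2 and 3 in both genes, before and after CpG. Psmb5 had 52.0%, 71.6% and 41.9%, then 44.0%, 82.4% and 50.0%, and here replicate 2 stood apart. The medians of its 20 flanking genes on chromosome 14 followed, at 48.7%, 73.3% and 48.1% in naive and 46.9%, 70.2% and 46.7% in stimulated samples. Psmd6, also on chromosome 14, had 87.5%, 90.1% and 69.2%, then 95.7%, 97.8% and 59.0%. Replicate 3 was low in it, as in its flanking genes at 48.7% and 49.1% against 65.4% to 71.0% elsewhere, with an adjusted p for the gene of 0.0946 in edgeR. Psmc6 did not follow its flanking genes, whose median was 78.1% and 78.0% in the replicate 2 samples. Samples with the same number thus shared an allele pattern at these genes, and its cause was not tested.

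**Figure D4:**
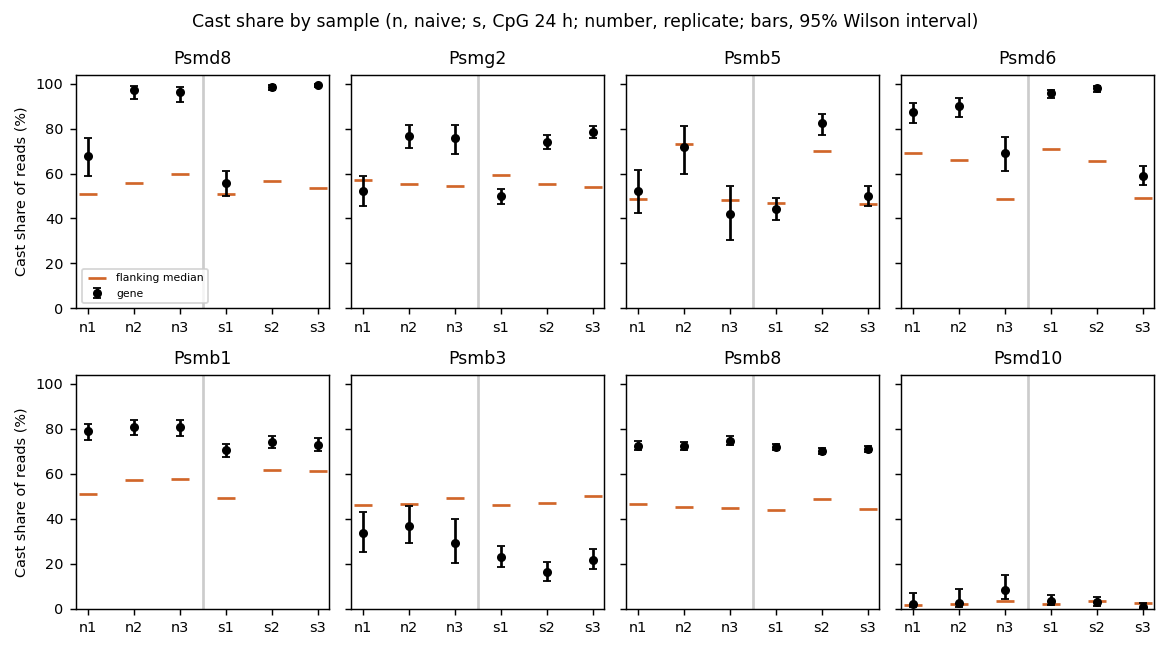
Cast share of reads (y axes, %) in each sample (x axes: n, naive; s, CpG 24 h; number, replicate) for 8 members, with 95% Wilson intervals for counting error and the median of flanking genes as a bar. Psmd8 and Psmg2 are low in replicate 1 of both groups, Psmb5 is high in replicate 2 along with its flanking genes, and Psmb1 and Psmb3 are lower after CpG.

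The other genes of the pathway were taken from lists by role. Of 12 further proteasome genes with a row, 6 of 12 tested rose on 129 and 5 of 12 on Cast, and none fell. With the replicate block these counts were 8, with Psmf1 and Shfm1 added, and 6, with Shfm1 added. Of all genes tested, 28.2% on 129 and 30.7% on Cast were called higher, and 33.1% and 32.9% with the block. Txnl1, a thioredoxin bound to the 19S cap, rose by 2.25 ± 0.16 and 2.46 ± 0.16. The cap-bound deubiquitinases Uchl5 and Usp14 rose by 1.95 ± 0.18 and 1.65 ± 0.18, and by 1.48 ± 0.17 and 1.54 ± 0.13. Adrm1, the ubiquitin receptor that holds Uchl5, rose by 0.96 ± 0.22 on 129 and had 0.91 ± 0.42 on Cast, which did not pass. Among genes that bring ubiquitin-tagged proteins to the proteasome, 9 of 13 tested rose on 129 and 8 of 10 on Cast, and none fell. With the block they were 10, with Ubqln1 added, and 9, with Rps27a added, beside the same shares of all genes. The shuttle Rad23b rose by 1.89 ± 0.12 and 1.76 ± 0.11, the unfoldase Vcp by 1.76 ± 0.13 and 1.40 ± 0.16, and Faf1 by 1.20 ± 0.14 and 1.04 ± 0.15.

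Nfe2l1, the factor that induces proteasome genes when proteasome activity is short, had log2 fold changes of 0.10 ± 0.19 and 0.20 ± 0.17, with adjusted p-values of 0.689 and 0.342 in edgeR. In the list around it 0 of 9 tested rose and 3 fell on 129, and 1 rose and 4 fell on Cast, where 27% and 31.5% of all genes were called lower, so on 129 the share that fell was near that of all genes. The genes that fell on both alleles were Mafk, a small Maf partner (−0.48 ± 0.17 and −0.74 ± 0.16), the ubiquitin ligase Syvn1 (−0.55 ± 0.15 and −0.70 ± 0.16) and the CCAAT-binding subunit Nfya (−0.67 ± 0.21 and −0.55 ± 0.17). Ngly1, which deglycosylates Nfe2l1, had −0.58 ± 0.41 on 129, which did not pass, and fell by 0.90 ± 0.31 on Cast.

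The interferon and class I partners of the immunoproteasome fell, in 6 of 7 tested genes on 129 and 7 of 8 on Cast. Of all genes tested, 27% on 129 and 31.5% on Cast were called lower. Irf1, a factor that induces Psmb9, fell, with log2 fold changes of −2.60 ± 0.18 and −2.87 ± 0.22. B2m, the light chain of class I, fell too (−1.11 ± 0.12 and −1.23 ± 0.13), as did the peptide-loading factor Tapbp (−1.10 ± 0.13 and −1.15 ± 0.12). Erap1, a peptide-trimming enzyme, was the gene that rose, by 0.36 ± 0.13 and 0.69 ± 0.12. The macrophage markers given above fell in the same samples, and their part in these values was not tested.

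Many of these genes share genomic space. In the GENCODE annotation of GRCm38, 23 of the 48 members overlap another gene, among them Psmb9 with Tap1, Psmb8 with the antisense Gm20496, Psmb10 with the antisense Gm16156, and Psmb7 with Nek6. The kit keeps strand, but the strand setting of the counting is not given in the sources used here, so reads of such pairs may not be separated.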

How the data were processed

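RNA of 6 samples, 3 naive and 3 stimulated with CpG, was sequenced from a stranded total RNA kit, per the labels' protocols. Each sample has 2 tables of whole-number counts per gene as deposited, one per strain annotation, with no normalization. STAR, featureCounts and Subread 2.0.0 are named, with build mm10 and no role, per the submitters' processing notes. The tables end in total rows of the htseq-count format, and how a read was assigned to a strain is not given in the sources used here. Those rows, led by reads in no gene (44.5% to 67.1% of aligned reads), stayed out of library sizes and tests. The other 12 samples of the series, from another cross or fibroblasts, are not analysed here.

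The members and all gene lists and motifs were chosen with earlier results of these data known. Replicates come from the sample titles, and nothing says whether they are separate animals, so p-values measure the spread between these samples. No library pair of a group agreed within sampling noise (chi-square per degree of freedom from 6.42 to 17.5). Each strain's tables were tested with edgeR 4.0.16 in R 4.3.3 (robust quasi-likelihood test, TMM, filterByExpr, Benjamini-Hochberg adjustment, threshold 0.05). Allele counts of matched genes with at least 10 reads in 3 samples were tested with a term per sample and 1 library size per sample. The test steps were also run on simulated data. The simulated samples had no replicate effect added, so that run does not cover such an effect. Deviations from the group mean correlated at 0.443 to 0.608 (129) and 0.163 to 0.246 (Cast) between same-numbered naive and stimulated samples, so the numbers were taken to pair the samples. Those of other numbers correlated at −0.391 to −0.068. Centring on the mean of 3 samples makes these values negative on average when the same-numbered ones are positive, so they add no separate support. The blocked fit is given where it changes a call or a count of calls. DESeq2 1.42.0, other scalings and filters, a test against a log2 fold change of 0.5 (glmTreat) and leaving out each sample were alternatives. Genes given values were fixed by rule: all catalytic, cap and core assembly genes, Psmd10, the highest and lowest mean fold change of every other role with 3 members tested in both tables, each member called on 1 allele alone, lower, or for its ratio, and up to 4 genes of each other list, of which some are not reported here. The additional genes given for a role were chosen after their values were seen. Flanking genes are the 10 nearest on each side in RefSeq order with at least 20 reads. Promoters were searched with Python 3.11.15.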

Additional observations from a re-analysis of the deposited data

Results flagged for a closer look

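The change with stimulation was called different between the alleles in 2 of 44 members when samples were paired by replicate number. Psmb1 had a change of −0.61 in the log2 Cast-to-129 ratio, with a rise on both alleles that was smaller on Cast. Psmb3 had a change of −1.01, with a rise called on 129 and none called on Cast. Both lay below the threshold of edgeR's test in that fit alone. Without the block their adjusted p-values were 0.0912 and 0.170 in edgeR. With it the members' share called was below the 7.52% of all genes.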

How the results depend on the processing

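Counts of members called higher stayed within 1.5 times of their values under each alternative run, at 32 to 39 on 129 and 33 to 37 on Cast. Members called lower on 129 numbered 2 with the replicate block and 1 to 2 when a sample was left out. On Cast they numbered 0 without the filter on low counts, 0 with glmTreat at a log2 fold change of 0.5 and 0 with DESeq2, and 0 to 1 when a sample was left out. Members whose allele balance shifted numbered 2 with the replicate block. When a sample was left out, Psmd6 on 129 ranged from −1.19 to 1.57 on the log2 scale, Psmb9 on Cast from −0.46 to 0.11 and Psmd4 on Cast from −0.26 to 0.041, so their signs turned. None of these 3 genes was called in those tables. The block left the Psmd10 share difference at −1.98 points, and beside the calls named for Psmb5, Psmb9, Psmb1 and Psmb3 it changed no other call of the members given values. Without the filter the median of all genes was −0.17 on 129 and −0.16 on Cast, and with DESeq2 −0.19 and −0.21, where more low genes were tested, while the members' medians stayed at 1.47 to 1.53. The cause of the other changes was not tested. Against a log2 fold change of 0.5 (glmTreat), calls were lost among the genes fixed by rule. These were Psma7, Psmb8, Psme1, Psme4 and Psmg4 on 129 and Psmb1, Psmb8, Psmb10 and Psme1 on Cast. For Psmb8 the adjusted p-values were 0.0886 and 0.251 by glmTreat. Psmd5, at 0.57 ± 0.17 on 129 and 0.66 ± 0.18 on Cast, is outside that rule. Whether it kept its calls in that run is not reported here. Too few reads to test limited Psmd8 on 129 and the Cast copies of Psmc2 and Psmd10.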
